A study of Homo sapiens with 4 samples.

Results

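The genes described are the subunits of oxidative phosphorylation, taken by gene symbol as NDUF, SDH, UQCR, CYC1, COX and ATP5 genes of the nucleus and the 13 protein-coding genes of mitochondrial DNA. The symbols picked 109 of the 58274 gene identifiers in the table, 96 nuclear and 13 mitochondrial. Of the 96 nuclear genes, 81 reached 1 FPKM (fragments per 1000 bases of transcript and 1000000 fragments mapped) in at least 1 library, and 77 of these encode a subunit. The other 4 were a pseudogene, a retrogene copy, an associated protein and a readthrough gene. The 15 that did not reach 1 FPKM were 10 pseudogenes, the retrogene copy ATP5L2 and the subunit genes COX4I2, COX7A1, COX7B2 and COX8C. All 13 mitochondrial genes were far above 1 FPKM in every library. Among the 77 nuclear subunits, 75 were at 11.5 FPKM or more in all 4 libraries, and only COX6A2 and COX6B2 were low.

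The samples followed BC1, a line of human induced pluripotent stem cells, through its differentiation into blood under defined conditions, with activin A and BMP4 for the first 2 days and VEGF and bFGF after that. The 4 populations were BC1 cells before differentiation, APLNR+ mesoderm sorted at day 2, hemogenic endothelial progenitors (HEPs) sorted as CD31+CD34+ at day 5 and hematopoietic progenitor cells (HPCs) sorted as CD43+ at day 8. The comparison asks how gene expression changes at each fate switch on the way from pluripotency to blood. Each population was measured in 1 RNA-sequencing library from 1 line, so no difference below has a replicate check and no test between populations was possible.

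Oxidative phosphorylation is carried out in the inner mitochondrial membrane. Complexes I and II pass electrons from NADH and succinate to coenzyme Q, complex III passes them on to cytochrome c, and complex IV gives them to oxygen. Complexes I, III and IV pump protons, and complex V, the ATP synthase, uses the proton gradient to make ATP. Complex II is encoded in the nucleus alone, whereas the other complexes join a few subunits made inside the mitochondrion to many imported ones. Pluripotent cells are known for a high rate of glycolysis, and blood stem and progenitor cells for sensitivity to defects of the respiratory chain.

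The libraries held between 19500000 and 23400000 mapped fragments, as recovered from the steps between low values. Marker genes followed the labels: POU5F1 was highest in BC1, APLNR, MESP1 and MIXL1 in APLNR+, CDH5, CD34 and TIE1 in CD31+CD34+, and SPN, RUNX1, GATA1 and ITGA2B in CD43+. PECAM1 was higher in CD43+ than in CD31+CD34+, and PTPRC, which encodes CD45, did not exceed 0.0349 FPKM. The 13 mitochondrial subunit genes made up 7.47%, 5.57%, 5.51% and 7.58% of the summed FPKM of BC1, APLNR+, CD31+CD34+ and CD43+. In bulk RNA, fewer cells of a type and less RNA per cell cannot be told apart, and a change below is a change in share of the library.

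Transcripts of both genomes were on balance lower in APLNR+ mesoderm than in BC1 and higher in HPCs than in HEPs. The summed FPKM of the 77 nuclear subunits was 13065 in BC1 cells, 10426 in APLNR+ mesoderm, 11046 in HEPs and 13223 in HPCs. For the 13 mitochondrial subunits the sums were 46951, 34484, 33457 and 50035 FPKM. Both sums were lowest in the intermediate populations, and in CD43+ both were back near the BC1 level, at 101% of it for the nuclear and 107% for the mitochondrial genes. The gene COX7C carried a large part of the nuclear dip: without it, APLNR+ stood at 84.2% of BC1 in place of 79.8%.

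Changes are given on the log2(FPKM + 1) scale, which understates those of low genes, and a gene is counted as rising or falling from 1.5-fold on that scale. The median change of the nuclear subunits was -0.24 from BC1 to APLNR+, 0.13 from APLNR+ to CD31+CD34+ and 0.19 from CD31+CD34+ to CD43+. Over all 17137 genes kept by the 1 FPKM filter the medians were 0.00, 0.01 and -0.08. From BC1 to APLNR+, 65 of the 77 nuclear subunits were lower, against 49.7% of all genes, and from CD31+CD34+ to CD43+ 61 were higher, against 42.6% of all genes. Most of these shifts were small. At the first transition 10 nuclear subunits fell by at least 1.5-fold, where 18.2% of all genes did, and 1 rose, where 18% did. At the second 8 rose and 3 fell, against 23.9% and 21.3% of all genes, and 50 were higher, against 50.7%. At the third 6 rose and none fell, against 15% and 24.1%. With FPKM rescaled to the total of nuclear protein-coding genes the latter count was 5 against 2, and with median-of-ratios size factors 13 against 0. Shares of all genes past this limit were taken from FPKM as deposited, not under these scalings. COX6A2 reached 1 FPKM only in CD43+ and COX6B2 only in BC1. Without them, and with FPKM as deposited, 8 of 75 nuclear subunits fell at the first transition and 5 rose at the third.

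Few nuclear subunits passed 2-fold. At the first transition COX7C alone fell that far, and none rose, where 9.32% and 9.15% of all genes did. At the second NDUFB5, NDUFA9 and SDHA rose and none fell, against 13% and 11.4% of all genes. At the third COX6A2 alone rose, on few fragments, and none fell, against 7.63% and 13.5%. From BC1 to CD43+ COX6B2, under 5 FPKM in every library, alone fell and none rose, against 18.9% and 15.2%.

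The mitochondrial subunits moved further. Their median change was -0.59, 0.00 and 0.50 at the 3 transitions, and all 13 were lower in APLNR+ than in BC1 and higher in CD43+ than in CD31+CD34+. Of all genes, 49.7% were lower at the first transition and 42.6% higher at the third. At the first transition 7 of the 13 mitochondrial subunits fell by at least 1.5-fold and none rose, against 18.2% and 18% of all genes. At the second 1 rose and none fell, against 23.9% and 21.3%, and at the third 6 rose and none fell, against 15% and 24.1%. Among the nuclear subunits 52 of 77 were lower at the first transition and higher at the third, a course that 23.3% of all genes took. The lowest library was APLNR+ for 45 of the 77 nuclear subunits, against 21.6% of all genes, and CD43+ was the highest for 39 of them, against 24% of all genes. Counting error was small beside the mitochondrial fall from BC1 to APLNR+. The 95% interval of the fold left out 1 there for all 11 mitochondrial subunits that have an estimate. Among the nuclear subunits it left out 1 for 56 of 77 and held 1 for 21. From APLNR+ to CD31+CD34+ it held 1 for 25 of the 75 with an estimate, and from CD31+CD34+ to CD43+ for 25 of 76. In that order, the nuclear intervals reached a median of 0.13, 0.13 and 0.12 to each side on the log2 scale. The nuclear median changes were -0.24, 0.13 and 0.19. Such intervals say nothing of how cultures or sorts vary.

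**Figure D1:**
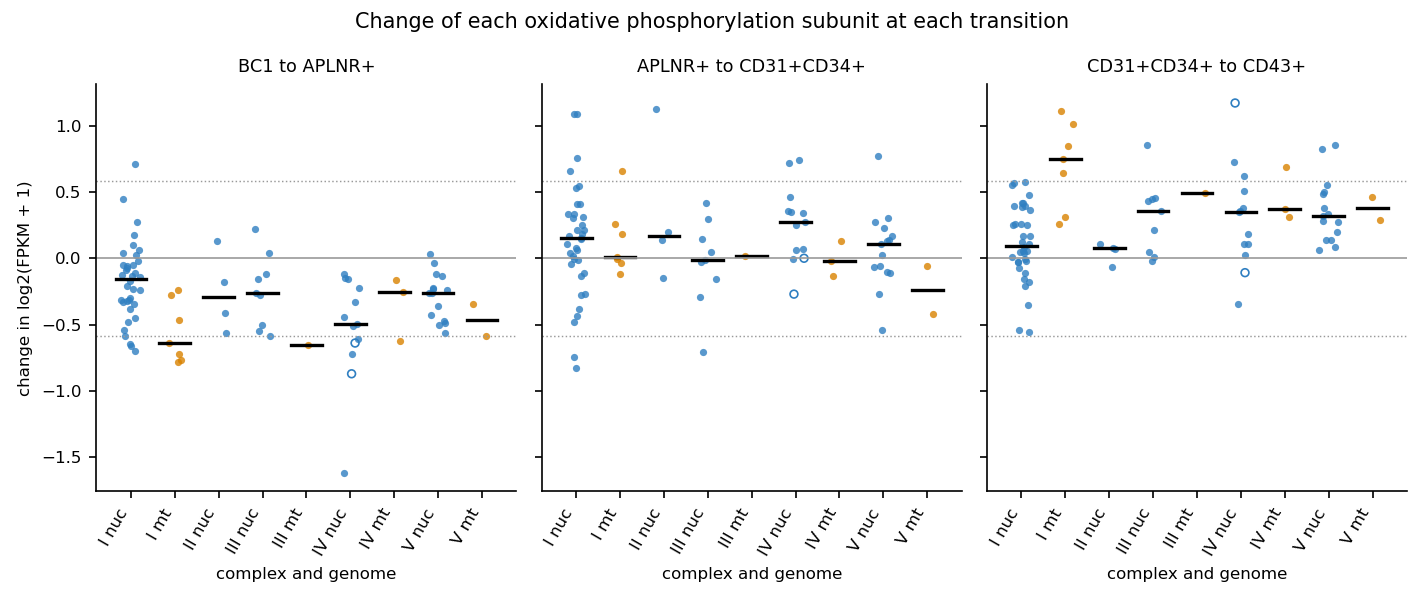
Each point is 1 subunit gene, placed by complex and by genome (nuc, nuclear, blue; mt, mitochondrial, orange), and its height is the change in log2(FPKM + 1) at the transition named above the panel. Black bars are medians, dotted lines mark 1.5-fold and open circles are COX6A2 and COX6B2, which were under 5 FPKM in every library. All 13 mitochondrial genes lie below 0 in the left panel and above 0 in the right panel, and COX7C is the point at -1.62.

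The median net change over the whole course was small, with single genes going both ways. Between BC1 and CD43+ the nuclear median was 0.10 and the mitochondrial median 0.18, against -0.06 for all genes. Among the 76 nuclear subunits with an estimate, the 95% interval of the fold lay above 1 for 35, below 1 for 20 and held 1 for 21. Among the 11 mitochondrial ones it lay above 1 for 7 and below 1 for 4. By then 5 nuclear subunits had risen and 3 had fallen by at least 1.5-fold, where 24.7% and 29.6% of all genes had. With the nuclear total that count was 4 against 4, and with size factors 7 against 3. As deposited and without COX6A2 and COX6B2 it was 5 against 2. NDUFS5, a small membrane-arm subunit of complex I and one of the most abundant members, kept to a falling course. It was at 893 FPKM in BC1 cells, 654 in APLNR+ mesoderm, 538 in HEPs and 530.1 in HPCs. It was thus highest in BC1, and its net fall was 1.68-fold (95% interval 1.61 to 1.76).

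Transcript length moved with the change. The nuclear subunits are short, with a median transcript length of 703 bases. Among the 4725 nuclear protein-coding genes with a mean of at least 20 FPKM, the median change from BC1 to APLNR+ was -0.13 for transcripts of up to 500 bases, 0.03 for those over 600 and up to 800 bases and 0.14 for those over 1500 and up to 2500 bases. The subunits, at -0.24, lay below the value for genes of their own length. From CD31+CD34+ to CD43+ the same length classes had medians of 0.16, -0.01 and -0.11, beside the subunits' 0.19. Of the transcripts of up to 500 bases 69.2% were higher, of those over 600 and up to 800 bases 49.3%, and of the subunits 61 of 77. The part of length in their change was not tested. In these abundant genes 42.3% were lower at the first transition and 9.48% fell by at least 1.5-fold. Of the 77 nuclear subunits, 32 also overlap another expressed gene, 28 of them on the opposite strand, and the library kit keeps no strand.

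The mitochondrial genes are transcribed as long precursors from both strands of a circular genome and cut into single messages. The 7 complex I genes had a median change of -0.64 at the first transition and 0.75 at the third. MT-ND3, which encodes a small core subunit of the membrane arm, was at 4499 FPKM in BC1 cells, 2721 in APLNR+ mesoderm, 3262 in HEPs and 7049 in HPCs. MT-ND3 was therefore lowest in APLNR+ and highest in CD43+, with a fall of 1.65-fold (95% interval 1.597 to 1.71) and a later rise of 2.16-fold (95% interval 2.09 to 2.23). MT-ND1, the subunit that lines the coenzyme Q site, was at 1171 FPKM in BC1 cells, 964 in APLNR+ mesoderm, 889.6 in HEPs and 1799 in HPCs. It was somewhat lower in each population up to CD31+CD34+ and then rose 2.02-fold (95% interval 1.98 to 2.06) into CD43+. MT-ND2 was likewise highest in CD43+, with 1147, 831, 828 and 1394 FPKM in the order of differentiation.

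MT-ND4 was at 2156 FPKM in BC1 cells, 1386 in APLNR+ mesoderm, 1352 in HEPs and 2117 in HPCs. It was close to its BC1 level again in CD43+, as was MT-ND4L, which shares its message, at 2626, 1542, 1555 and 2794 FPKM. MT-ND5, the last proton-pumping subunit along the arm, varied least of these complex I genes, with 881, 745, 846 and 1014 FPKM. MT-ND6 is the sole protein gene on the other strand of mitochondrial DNA, at chrM:14149-14673, and it had a course of its own. It was at 1719 FPKM in BC1 cells, 997 in APLNR+ mesoderm, 1577 in HEPs and 1953 in HPCs, so it fell 1.72-fold (95% interval 1.67 to 1.78) into APLNR+ and had risen 1.58-fold (95% interval 1.53 to 1.63) by CD31+CD34+. Reads from its own strand and from the opposite one cannot be told apart without strand. It was the only mitochondrial gene that rose by at least 1.5-fold at the second transition.

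MT-CYB, cytochrome b of complex III, was at 1742 FPKM in BC1 cells, 1107 in APLNR+ mesoderm, 1119 in HEPs and 1578 in HPCs. It fell 1.57-fold (95% interval 1.55 to 1.602) at the first transition, and did not differ beyond counting error at the second. Among the catalytic subunits of complex IV, MT-CO1 was at 6253 FPKM in BC1 cells, 5589.6 in APLNR+ mesoderm, 5506 in HEPs and 8896 in HPCs. It changed little until CD31+CD34+ and then rose 1.62-fold (95% interval 1.61 to 1.63). MT-CO2 was at 5146, 4310.3, 4722 and 5857 FPKM, the smallest range of the 3. MT-CO3 was at 4045 FPKM in BC1 cells, 2626 in APLNR+ mesoderm, 2394 in HEPs and 3096 in HPCs. MT-CO3 thus fell 1.54-fold (95% interval 1.52 to 1.56) at the first transition and stayed below BC1 in CD43+.

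MT-ATP6 and MT-ATP8, the membrane subunits of complex V, overlap in 1 message. MT-ATP6 was at 4789.7 FPKM in BC1 cells, 3184 in APLNR+ mesoderm, 3059.6 in HEPs and 3735 in HPCs, a fall of 1.505-fold (95% interval 1.48 to 1.53) that was reversed only in part. MT-ATP8 was at 10777 FPKM in BC1 cells, 8479.9 in APLNR+ mesoderm, 6344 in HEPs and 8753 in HPCs. Both were still below BC1 in CD43+, where MT-ND1, MT-ND3 and MT-CO1 stood above it. MT-ATP8 and MT-ND4L are too short for their fragments to be estimated, so they have no interval.

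**Figure D2:**
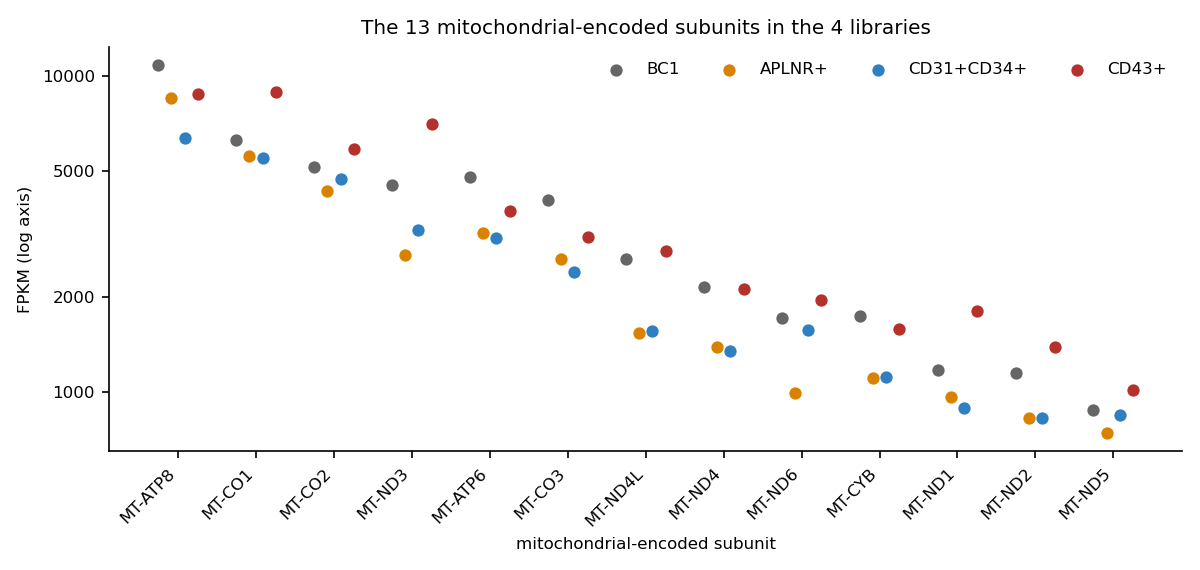
FPKM on a log axis of the 13 mitochondrial-encoded subunits, ordered by their mean, with 1 point for each of the 4 libraries. In every gene the APLNR+ point lies below BC1 and the CD43+ point above CD31+CD34+, and MT-ND6 is the gene with the widest gap between APLNR+ and CD31+CD34+.

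Mitochondrial ribosomal RNA moved in the same direction at the last transition. MT-RNR2, the large ribosomal RNA, was at 1173 FPKM in BC1 cells, 1092 in APLNR+ mesoderm, 1486 in HEPs and 3177 in HPCs. MT-RNR1, the small ribosomal RNA, was at 314, 429, 296 and 619.8 FPKM. Both were highest in CD43+, and their share of all FPKM there was 0.575%, against 0.236% to 0.294% in the other libraries. The kit selects polyadenylated RNA, so little ribosomal RNA should remain, and the part of this selection in the rise of the mitochondrial subunits was not tested. Nuclear copies of mitochondrial genes that are listed in the table held 0.0814% to 4.33% of the FPKM of their mitochondrial counterpart.

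The promoters of the nuclear subunits were searched for letters that regulators of these genes are known to bind. RefSeq promoters on GRCh38.p14, from 250 bases before to 50 bases after the start, were on hand for 63 of the 77 subunits and were searched on both strands. The NRF1 motif, GCGCA and GCGC with 1 base of any kind between them, was in 15 of 63 (23.8%), against 6.28% of all 27305 promoters. CCGGAAG, the core of the ETS family that includes GABP, was in 19 (30.2%), against 10.7%. AAGATGGCG, the YY1 motif, was in 8 (12.7%), against 1.85%. TCAAGGTCA, of the ERR family, was in SDHD alone (1.59%), against 0.359%, and GGGCGG, of SP1, was in 38 (60.3%), against 44.6%. No motif is contained in another. By complex, NRF1 matches were in 2 of 3 promoters of complex II, 4 of 7 of complex III, 6 of 31 of complex I, 3 of 11 of complex V and 0 of 11 of complex IV. A match is a description of the letters, not a sign that a factor binds.

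At least 1 promoter stretch per complex is printed to show what these matches look like. Each holds the 150 bases that end before the first annotated start, 5′ to 3′ on the strand of the gene, with the NRF1 or ETS letters in capitals. SDHA (chr5:218091-218240, plus strand) has 4 NRF1 matches that follow each other every 49 bases, of which 2 are in the stretch. NDUFA9 (chr12:4648945-4649094, plus strand) and NDUFA12 (chr12:95003771-95003920, minus strand) hold 1 each. UQCR11 (chr19:1605491-1605640, minus strand) holds 2 ETS matches on opposite strands, and ATP5H (chr17:75046986-75047135, minus strand) and COX5B (chr2:97645890-97646039, plus strand) hold 1. COX7C (chr5:86617754-86617903, plus strand), the nuclear subunit with the largest fall, holds neither and is printed for contrast.
SDHA: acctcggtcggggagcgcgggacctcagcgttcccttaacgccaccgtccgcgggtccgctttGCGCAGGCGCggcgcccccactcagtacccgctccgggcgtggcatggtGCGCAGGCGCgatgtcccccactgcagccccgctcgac
NDUFA9: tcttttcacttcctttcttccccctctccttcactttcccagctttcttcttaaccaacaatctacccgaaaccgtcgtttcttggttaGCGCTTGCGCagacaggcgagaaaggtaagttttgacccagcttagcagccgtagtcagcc
NDUFA12: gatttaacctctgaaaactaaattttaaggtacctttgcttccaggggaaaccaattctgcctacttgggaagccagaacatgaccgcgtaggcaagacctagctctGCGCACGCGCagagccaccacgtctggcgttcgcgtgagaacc
UQCR11: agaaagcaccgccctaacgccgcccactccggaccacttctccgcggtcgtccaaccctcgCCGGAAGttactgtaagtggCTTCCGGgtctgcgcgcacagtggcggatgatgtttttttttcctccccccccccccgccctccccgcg
ATP5H: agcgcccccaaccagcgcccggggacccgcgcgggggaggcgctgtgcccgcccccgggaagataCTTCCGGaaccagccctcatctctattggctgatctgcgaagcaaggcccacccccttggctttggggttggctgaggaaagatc
COX5B: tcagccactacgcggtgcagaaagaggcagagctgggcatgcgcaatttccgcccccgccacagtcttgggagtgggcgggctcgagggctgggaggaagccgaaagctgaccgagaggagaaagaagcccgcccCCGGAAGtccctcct
COX7C: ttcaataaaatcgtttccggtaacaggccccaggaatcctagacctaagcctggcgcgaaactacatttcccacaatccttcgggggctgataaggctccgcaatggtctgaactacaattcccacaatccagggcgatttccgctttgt

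Subunits with a match are described by their medians. The 15 subunits with an NRF1 match had a median change of -0.34 from BC1 to APLNR+ and the 19 with an ETS match -0.24, the value of all 77 nuclear subunits. From CD31+CD34+ to CD43+ the medians were 0.04 and 0.14, against 0.19. The printed NRF1 promoters themselves belong to genes with unlike courses: SDHA and NDUFA9 stayed high in CD43+, whereas NDUFA12 was back at 99.7 FPKM, within counting error of its BC1 level of 111.

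In complex I, the NADH dehydrogenase, the 36 nuclear subunits had median changes of -0.15, 0.15 and 0.09 at the 3 transitions. At the first, 28 of the 36 were lower, against 49.7% of all genes. At that transition 4 of 36 fell and 1 rose by at least 1.5-fold, where 18.2% and 18% of all genes did. The median in each arm was similar there, at -0.13 for the 10 subunits of the NADH-binding module, -0.14 for the 6 of the coenzyme Q module and -0.22 for the 20 of the membrane arm. At the third transition the membrane arm was at 0.15 and the coenzyme Q module at -0.05. The accessory subunit NDUFB5 of the membrane arm was at 43.7 FPKM in BC1 cells, 26.5 in APLNR+ mesoderm, 57.5 in HEPs and 75.9 in HPCs. It was lowest in APLNR+ and highest in CD43+, after a fall of 1.65-fold (95% interval 1.43 to 1.895) and a rise of 2.17-fold (95% interval 1.91 to 2.47).

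NDUFA9, an accessory subunit where the arms meet, was at 31.1 FPKM in BC1 cells, 19.3 in APLNR+ mesoderm, 42.05 in HEPs and 38.9 in HPCs. Its fall of 1.62-fold (95% interval 1.32 to 1.99) at the first transition was likewise followed by a rise, of 2.18-fold (95% interval 1.81 to 2.65). NDUFA6 went the other way. This accessory subunit of the peripheral arm, at chr22:42085525-42090955, was at 69.4 FPKM in BC1 cells, 114 in APLNR+ mesoderm, 63.8 in HEPs and 76.1 in HPCs. It was the single nuclear subunit that rose by at least 1.5-fold into APLNR+, by 1.65-fold (95% interval 1.53 to 1.76), and it then fell 1.79-fold (95% interval 1.67 to 1.92). NDUFA6-AS1, a gene that overlaps it on the opposite strand, was at 1.19, 7.06, 1.18 and 0.829 FPKM and was highest in the same library.

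NDUFS7, which holds the last iron-sulfur cluster before coenzyme Q, was at 88.3 FPKM in BC1 cells, 121 in APLNR+ mesoderm, 150.4 in HEPs and 133 in HPCs. It was lowest in BC1 and highest in CD31+CD34+. NDUFB10, a membrane-arm subunit, was at 135 FPKM in BC1 cells, 144 in APLNR+ mesoderm, 85.6 in HEPs and 128 in HPCs, lowest in CD31+CD34+ after a fall of 1.69-fold (95% interval 1.54 to 1.85). NDUFS4 and NDUFA12, which are added late to the NADH-binding module, were both highest in CD31+CD34+. NDUFS4 was at 58.1, 53.2, 90.5 and 62.03 FPKM and NDUFA12 at 111, 100.5, 147 and 99.7 FPKM in the order of differentiation. They were 1.46-fold and 1.47-fold lower in CD43+ than in CD31+CD34+, just short of the 1.5-fold limit. NDUFV3, the least abundant complex I member, was at 13.2, 12.7, 12.3 and 18.7 FPKM, with its highest value in CD43+.

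Complex II, succinate dehydrogenase, also takes part in the tricarboxylic acid cycle. Its 4 subunits had median changes of -0.29, 0.17 and 0.07. The flavoprotein SDHA, at chr5:218241-256700, was at 32.2 FPKM in BC1 cells, 23.98 in APLNR+ mesoderm, 53.5 in HEPs and 51.1 in HPCs. SDHA was thus at its lowest in APLNR+ and rose 2.23-fold (95% interval 2.06 to 2.41) into CD31+CD34+, the largest rise among the 77 nuclear subunits at that transition. Its promoter is the one with the NRF1 letters repeated every 49 bases. The iron-sulfur subunit SDHB was at 32.4 FPKM in BC1 cells, 35.5 in APLNR+ mesoderm, 31.9 in HEPs and 33.7 in HPCs, and no step between neighbouring populations left its counting interval. The membrane anchor SDHC was at 66.8, 58.9, 65.03 and 70.3 FPKM, also without a step beyond counting error. The other anchor, SDHD, was at 37.1 FPKM in BC1 cells, 24.8 in APLNR+ mesoderm, 28.7 in HEPs and 30.1 in HPCs, 1.49-fold (95% interval 1.29 to 1.73) lower in APLNR+ than in BC1 and then without a step beyond counting error. The subunits of complex II therefore did not move together.

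SDHA shares sequence with pseudogenes, and SDHD shares its place with another gene. The pseudogene SDHAP1 was at 5.16, 8.82, 11.6 and 10.96 FPKM and was, like SDHA, higher in CD31+CD34+ and CD43+ than in BC1. TIMM8B overlaps SDHD on the opposite strand and was at 83.8, 68.9, 35.9 and 73.4 FPKM, lowest in CD31+CD34+. How fragments were divided among these genes was not tested.

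In complex III the 9 nuclear subunits had median changes of -0.27, -0.02 and 0.36, of which the second was 0.02 with FPKM rescaled to the nuclear protein-coding total. At the third transition 8 of 9 were higher, against 42.6% of all genes. UQCRH, the hinge protein that helps cytochrome c1 meet cytochrome c, was at 536 FPKM in BC1 cells, 356 in APLNR+ mesoderm, 319 in HEPs and 577 in HPCs. It was low in both middle populations and rose 1.81-fold (95% interval 1.72 to 1.905) into CD43+. UQCRQ, a small subunit near cytochrome b, was at 170.5 FPKM in BC1 cells, 153 in APLNR+ mesoderm, 93.002 in HEPs and 128 in HPCs. UQCRQ held its level into APLNR+ within 1.5-fold, fell 1.64-fold (95% interval 1.49 to 1.81) into CD31+CD34+ and was in part restored.

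CYC1, the cytochrome c1 heme protein, was at 171 FPKM in BC1 cells, 199 in APLNR+ mesoderm, 162 in HEPs and 222 in HPCs. It was one of 2 complex III subunits that were higher in APLNR+ than in BC1, by 1.17-fold (95% interval 1.12 to 1.22). The other was UQCR10, at 72.8, 74.9, 73.3 and 72.4 FPKM, which did not differ beyond counting error at any transition. UQCRFS1, the Rieske iron-sulfur protein, was at 20.04 FPKM in BC1 cells, 13.4 in APLNR+ mesoderm, 14.95 in HEPs and 17.5 in HPCs, lowest in APLNR+, 1.496-fold (95% interval 1.37 to 1.63) below BC1. The small subunits UQCRB, at 158, 111, 148 and 154 FPKM, and UQCR11, at 53.2, 43.7, 53.9 and 54.1 FPKM, were lowest in APLNR+ as well.

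Complex IV, cytochrome c oxidase, had the lowest nuclear median at the first transition, -0.50. All 13 nuclear subunits were lower in APLNR+ than in BC1, against 49.7% of all genes. Without COX6A2 and COX6B2, which were near the counting limit, the median was -0.44 and 11 of 11 were lower. The medians at the next transitions were 0.27 and 0.35. COX7C, at chr5:86617904-86620962, was the most abundant nuclear subunit in BC1, and its printed promoter stretch holds no NRF1 or ETS match. It was at 1108 FPKM in BC1 cells, 359.9 in APLNR+ mesoderm, 594 in HEPs and 914 in HPCs. It fell 3.08-fold (95% interval 2.96 to 3.21) into APLNR+, the sole fall of at least 2-fold among the nuclear subunits above 5 FPKM, and then rose at each of the next transitions, by 1.65-fold (95% interval 1.58 to 1.72) and 1.54-fold (95% interval 1.49 to 1.59).

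COX5A, which binds on the matrix side of the enzyme, was at 171 FPKM in BC1 cells, 103 in APLNR+ mesoderm, 103 in HEPs and 170.1 in HPCs. It was equal within counting error in the middle populations, and its fall of 1.66-fold (95% interval 1.51 to 1.83) was matched by a rise of 1.66-fold (95% interval 1.51 to 1.82). COX5B, which carries a zinc site, was at 117, 86.2, 119 and 155 FPKM, lowest in APLNR+ and highest in CD43+. COX6C was at 159.8 FPKM in BC1 cells, 105 in APLNR+ mesoderm, 176 in HEPs and 178 in HPCs. It was low in APLNR+ alone, with a fall of 1.53-fold (95% interval 1.396 to 1.67) and a rise of 1.68-fold (95% interval 1.54 to 1.83). COX8A was at 321, 275, 328 and 257 FPKM and was the sole complex IV subunit above 5 FPKM that was lower in CD43+ than in CD31+CD34+. NDUFA4, once assigned to complex I, was at 68.4, 47.6, 50.2 and 54.2 FPKM and stayed below BC1.

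Several complex IV subunits have a second gene used in muscle, lung or testis. In these populations the widely expressed gene supplied between 97.5% and 100% of the FPKM of its pair. COX4I1 was at 347, 311, 397 and 451 FPKM, whereas COX4I2 was listed at 0 in all 4 libraries. COX8C was listed at 0 throughout beside COX8A. COX7A2 was at 173, 156, 198 and 254 FPKM. Its muscle form COX7A1 stayed at 0.0582% to 0.172% of the pair, on at most 0.898 estimated fragments. COX6A1 was at 371, 341, 356 and 384 FPKM. Its muscle form COX6A2 was at 0.558 FPKM in BC1, 0 in APLNR+ and CD31+CD34+ and 1.25 in CD43+. The highest of these values rests on an estimated 4.54 fragments.

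COX6B2, a form known from testis, was the one alternative gene whose change was beyond counting error. It was at 1.78 FPKM in BC1 cells, 0.518 in APLNR+ mesoderm, 0.259 in HEPs and 0.167 in HPCs. Its estimated fragments fell from 48.6 in BC1 to 4.96 in CD43+, and its FPKM fell 10.6-fold (95% interval 4.26 to 34.2), beside COX6B1 at 201, 159.8, 204 and 261 FPKM. COX6B2 passed the 1 FPKM filter through BC1 alone, so that filter favoured a fall from BC1. AC020922.1, a gene that overlaps it on the same strand, was at 0.539, 0.172, 0.0305 and 0.0167 FPKM. How fragments were divided between them was not tested. COX7B was at 18.5, 12.8, 15.7 and 22.7 FPKM, and COX7B2 made up 0% to 2.54% of the pair on at most 2.25 fragments.

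The ATP synthase had median changes of -0.26, 0.11 and 0.32 for its 15 nuclear subunits. At the first transition 14 of 15 were lower, against 49.7% of all genes. At the third 15 of 15 were higher, against 42.6% of all genes. With FPKM rescaled to the nuclear protein-coding total, the count at the third became 14 of 15. The 5 subunits of the catalytic head and central stalk together had a median of 0.49 at the third transition. The 6 of the membrane sector were at 0.33 and the 4 of the peripheral stalk at 0.21. ATP5B, the catalytic beta subunit, was at 319 FPKM in BC1 cells, 266 in APLNR+ mesoderm, 299 in HEPs and 439 in HPCs. It was 1.47-fold (95% interval 1.41 to 1.53) higher in CD43+ than in CD31+CD34+, short of the limit. ATP5A1, the alpha subunit, was at 297, 214, 235 and 259 FPKM. ATP5D, the delta subunit, was at 127, 129, 123 and 173 FPKM and was the only complex V subunit that was not lower in APLNR+.

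The c ring of the membrane sector is built of copies of 1 mature protein made from 3 genes. ATP5G1 was at 164 FPKM in BC1 cells, 110.3 in APLNR+ mesoderm, 102 in HEPs and 186 in HPCs. ATP5G2 was at 223 FPKM in BC1 cells, 165 in APLNR+ mesoderm, 283 in HEPs and 342 in HPCs. ATP5G3 was at 198 FPKM in BC1 cells, 193 in APLNR+ mesoderm, 179 in HEPs and 254 in HPCs. The genes had different courses: ATP5G1 was lowest in CD31+CD34+ and rose 1.82-fold (95% interval 1.63 to 2.03) into CD43+, whereas ATP5G2 had risen 1.71-fold (95% interval 1.62 to 1.81) already in CD31+CD34+. The share of ATP5G2 in their summed FPKM was 38.1% in BC1 cells, 35.3% in APLNR+ mesoderm, 50.2% in HEPs and 43.7% in HPCs. By estimated fragments, which weigh the longer transcripts more, it was 44.2%, 39.5%, 54.9% and 49.5%, with the same order of libraries.

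ATP5E, the epsilon subunit of the central stalk, was at 14.02 FPKM in BC1 cells, 11.5 in APLNR+ mesoderm, 14.1 in HEPs and 25.7 in HPCs. Its rise of 1.82-fold (95% interval 1.63 to 2.03) into CD43+ was the second called in complex V at that transition. ATP5E overlaps TUBB1 on the opposite strand, and TUBB1, a tubulin gene of platelets and their precursors, was at 0.0637, 0.216, 0.238 and 68.9 FPKM. The part of TUBB1 reads in the value of ATP5E was not tested. Of the peripheral parts, ATP5H was at 270.1, 210.1, 144 and 188 FPKM and ATP5I at 547, 391, 323 and 403 FPKM, both lowest in CD31+CD34+. ATP5F1, subunit b of the stalk, was at 102, 87.3, 88.9 and 92.8 FPKM, and ATP5L, subunit g, at 95.9, 81.3, 87.7 and 93.3 FPKM, the smallest steps of complex V into CD43+. ATP5O, which joins the stalk to the head, was at 169.9, 119.8, 148 and 180.1 FPKM, lowest in APLNR+.

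**Figure D3:**
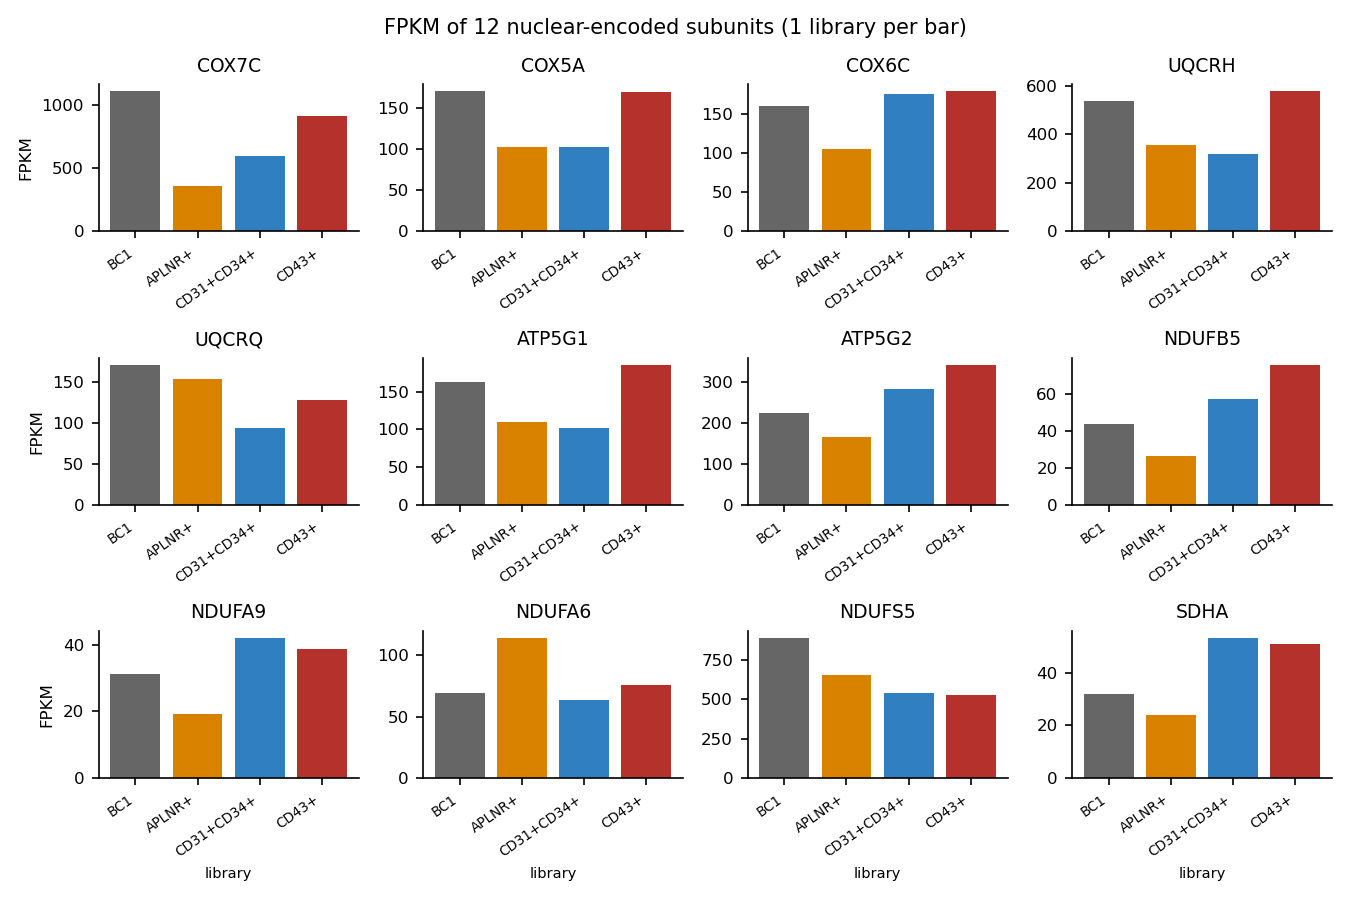
FPKM of 12 nuclear-encoded subunits, with 1 bar for each library and an axis that starts at 0 in every panel. COX7C, COX6C, NDUFB5, NDUFA9 and SDHA are lowest in APLNR+, COX5A is low in both middle populations, NDUFA6 peaks in APLNR+ and NDUFS5 is highest in BC1.

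The balance of the genomes was compared as the ratio of their summed FPKM. It was 3.59 in BC1 cells, 3.31 in APLNR+ mesoderm, 3.03 in HEPs and 3.78 in HPCs. The mitochondrial sum thus fell further than the nuclear one up to CD31+CD34+ and was relatively highest in CD43+. By geometric means, which weigh each gene equally, the ratio was 24.8, 21.0, 19.5 and 25.2, and without MT-ATP8, MT-ND4L and MT-ND6 it was 2.44, 2.25, 2.17 and 2.76. The order of the libraries was the same in each. At the first transition the mitochondrial median change was lower than the nuclear one by 0.35 on the log2 scale, and at the third it was higher by 0.31.

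Within complex I the summed mitochondrial FPKM was at 64.7% of BC1 in APLNR+ and 128% in CD43+, whereas the nuclear subunits were at 87.4% and 94.9%. MT-ND3 weighed heavily in the mitochondrial sum, with 4499 of 14199 FPKM in BC1 and 7049 of 18120 in CD43+. By medians, the change from BC1 to CD43+ was 0.20 for the mitochondrial and 0.13 for the nuclear subunits of complex I. In complex IV the nuclear sum was the lower of the pair in APLNR+, at 64.0% of BC1 against 81.1% for the mitochondrial one. Without COX7C the nuclear sum of complex IV was at 81.9%. In complex V the mitochondrial sum was lowest in CD31+CD34+, at 60.4% of BC1, and reached 80.2% in CD43+, where the nuclear sum was at 107%. In complex III the nuclear sum was at 81.4%, 75.4% and 105% of BC1 in the successive populations, and MT-CYB, its sole mitochondrial subunit, at 63.5%, 64.2% and 90.6%. In CD43+ the nuclear sum of complex IV was at 101% and the mitochondrial one at 116%.

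**Figure D4:**
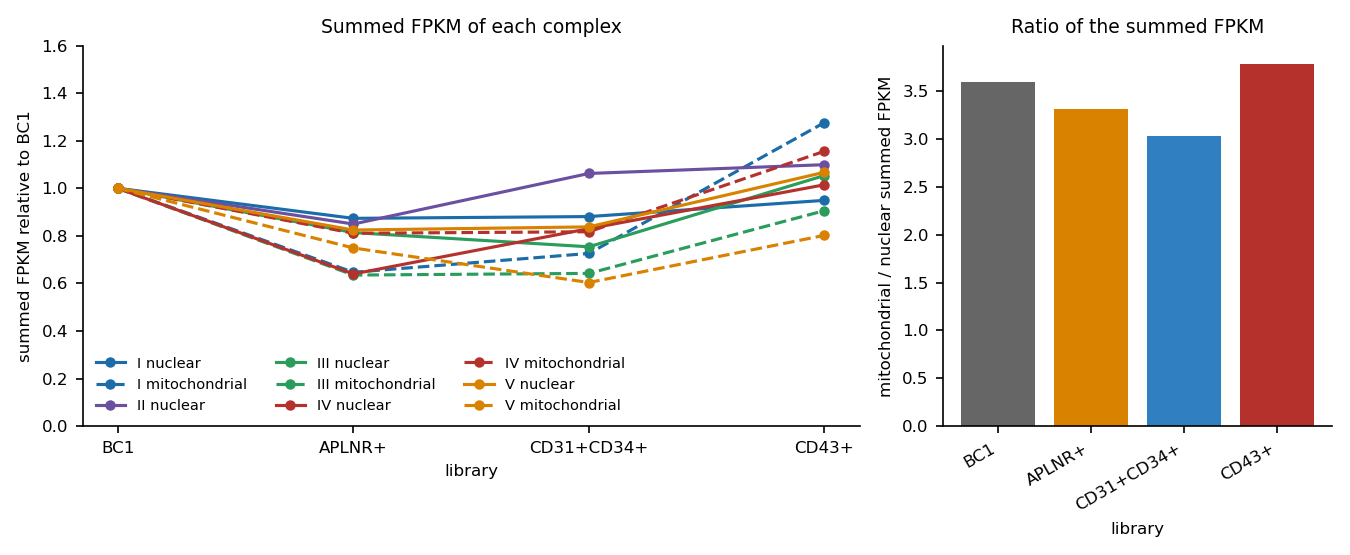
Left, summed FPKM of the subunits of each complex relative to BC1, with solid lines for nuclear and dashed lines for mitochondrial genes. Right, the ratio of mitochondrial to nuclear summed FPKM by library, from 3.03 in CD31+CD34+ to 3.78 in CD43+.

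Other genes of mitochondrial function were examined as 15 lists. The median was lower, then higher and higher again, as for the nuclear subunits, in 2 of them, the assembly factors of complex II and the carriers. Each of these had only 4 genes, of which 2 were higher at the third transition, and the carriers' median there was 0.02. Assembly factors of complex I, of which 16 were measured, had medians of -0.24, -0.21 and 0.18, and 4 of them fell at the second transition, where 21.3% of all genes did. NDUFAF4, an early assembly factor, was at 35.5, 38.4, 17.4 and 18.7 FPKM. NDUFAF3, its partner, was at 18.01, 33.3, 28.5 and 45.1 FPKM and was highest in CD43+. NDUFAF7 was at 17.03, 7.22, 7.53 and 7.03 FPKM, highest in BC1. The 25 assembly factors of complex IV had medians of -0.12, -0.27 and 0.04, and 8 of them fell and 2 rose at the second transition, against 21.3% and 23.9% of all genes. COA7 was at 24.5 FPKM in BC1 cells, 22.5 in APLNR+ mesoderm, 6.10 in HEPs and 10.2 in HPCs, the largest fall among them, 3.69-fold (95% interval 3.34 to 4.07). HIGD1A, a small protein that binds the enzyme, was at 70.7, 134, 45.9 and 114 FPKM and alternated between populations.

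Genes of mitochondrial protein import were mostly lower at the second transition, 25 of 29, against 47.9% of all genes. Their medians were 0.03, -0.52 and 0.20, and 14 of them fell by at least 1.5-fold from APLNR+ to CD31+CD34+, where 21.3% of all genes did. TOMM40, the channel of the outer membrane, was at 122 FPKM in BC1 cells, 175 in APLNR+ mesoderm, 44.5 in HEPs and 86.05 in HPCs, a fall of 3.93-fold (95% interval 3.71 to 4.16). HSPA9, the import motor of the matrix, was at 134, 95.6, 38.2 and 90.5 FPKM. Over the same transition 50 of the 77 nuclear subunits were higher, against 50.7% of all genes. TOMM7 was at 171, 94.9, 60.3 and 61.02 FPKM and TOMM20, a receptor, at 56.5, 46.9, 58.2 and 68.3 FPKM. GFER was at 74.9, 105, 62.4 and 45.9 FPKM and PAM16 at 61.04, 89.04, 46.9 and 53.9 FPKM.

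Genes that copy and read mitochondrial DNA were mostly lower in APLNR+ than in BC1, 13 of 16 against 49.7% of all genes, and in CD31+CD34+ than in APLNR+, 12 of 16 against 47.9%. The list had medians of -0.49, -0.47 and 0.31, and 6 and then 5 of them fell by at least 1.5-fold, against 18.2% and 21.3% of all genes. TFAM, which packages and activates mitochondrial DNA, was at 47.9 FPKM in BC1 cells, 36.4 in APLNR+ mesoderm, 21.3 in HEPs and 26.5 in HPCs. TWNK, the helicase, was at 16.4, 10.7, 4.303 and 7.56 FPKM. LRPPRC, which stabilises mitochondrial messages, was at 41.4 FPKM in BC1 cells, 23.3 in APLNR+ mesoderm, 23.4 in HEPs and 40.6 in HPCs. LRPPRC was low in both middle populations and back at its BC1 level in CD43+, within counting error. PNPT1, an RNA-degrading enzyme, was at 11.1, 10.003, 6.36 and 21.4 FPKM, highest in CD43+, while the topoisomerase TOP1MT was at 33.4, 24.8, 22.8 and 11.7 FPKM, lowest there.

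Genes that feed the chain took other courses. The 14 genes of the tricarboxylic acid cycle had medians of 0.11, 0.02 and 0.21, and 12 of 14 were higher at the third transition, against 42.6% of all genes. IDH2, which makes mitochondrial NADPH, was at 34.4 FPKM in BC1 cells, 41.4 in APLNR+ mesoderm, 72.5 in HEPs and 84.4 in HPCs. CYCS, the gene of cytochrome c, was at 169 FPKM in BC1 cells, 168 in APLNR+ mesoderm, 69.8 in HEPs and 146 in HPCs. It fell 2.402-fold (95% interval 2.23 to 2.59) into CD31+CD34+ and rose 2.09-fold (95% interval 1.94 to 2.26) into CD43+, while its list of 13 genes of cytochrome c and coenzyme Q had medians of -0.15, -0.19 and 0.18. PDSS1, which builds the tail of coenzyme Q, was at 8.704, 6.9997, 3.21 and 7.76 FPKM, with its lowest value in the same library as CYCS.

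Carriers and uncoupling proteins were represented by the 4 of 7 genes that reached 1 FPKM. UCP2, an uncoupling protein expressed in blood cells, was at 25.4 FPKM in BC1 cells, 37.3 in APLNR+ mesoderm, 11.3 in HEPs and 144 in HPCs. Its rise of 12.8-fold (95% interval 10.99 to 14.8) was the largest in any of the lists. SLC25A4, the muscle form of the ATP and ADP carrier, was at 23.5, 9.59, 10.02 and 7.104 FPKM, and SLC25A5, the form of dividing cells, at 295, 216, 280.3 and 298 FPKM. Of the paralogs outside the symbol rule, of which 5 were measured, NDUFA4L2, a gene induced by low oxygen, did not exceed 1.33 FPKM. COX7A2L was at 68.7, 78.7, 70.9 and 49.4 FPKM and AIFM1 at 26.8, 23.3, 24.99 and 44.4 FPKM.

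**Figure D5:**
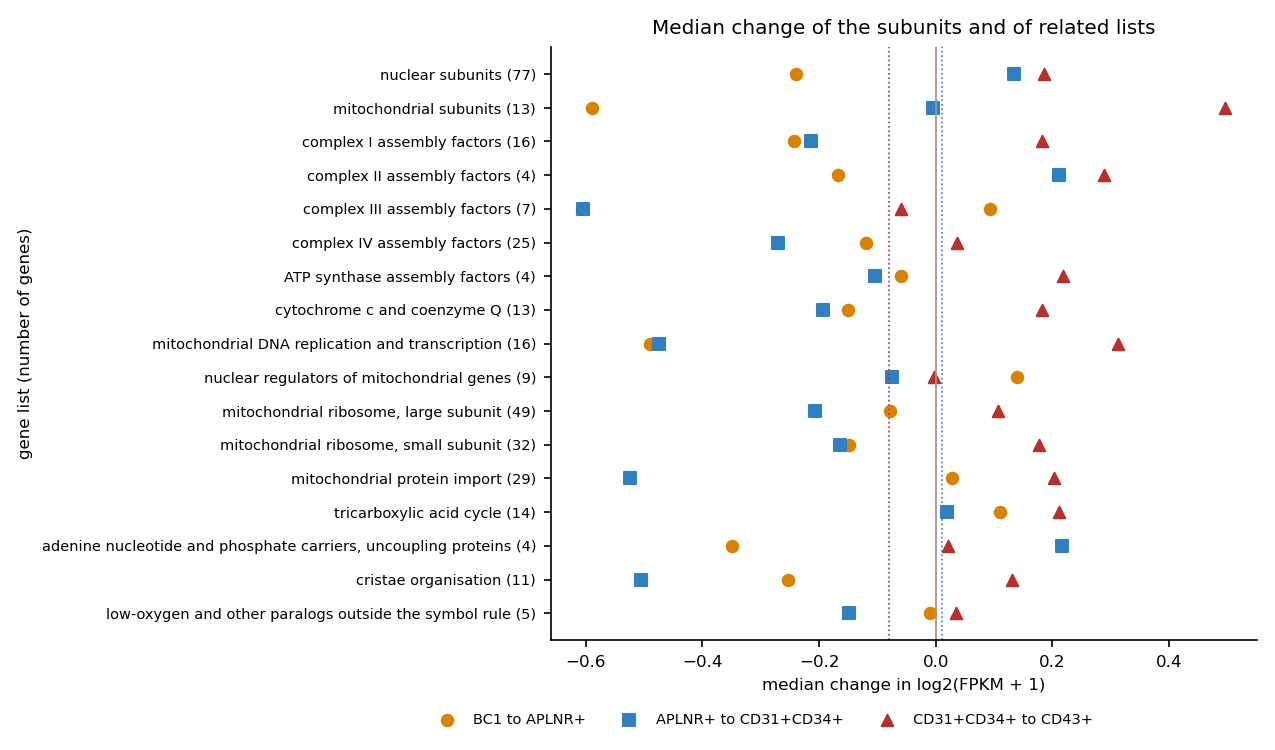
Median change in log2(FPKM + 1) of the nuclear and mitochondrial subunits and of 15 related gene lists at the 3 transitions, with the number of genes in brackets. Dotted lines are the medians of all genes kept, 0.00, 0.01 and -0.08, and the mitochondrial subunits hold the outermost points at the first transition and at the third.

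Regulators known to act on these genes were followed as a list of 10, of which 9 reached 1 FPKM. Their medians were 0.14, -0.08 and 0.00. NRF1, the nuclear respiratory factor, was at 6.58, 8.004, 5.98 and 5.97 FPKM. GABPA, which with GABPB1 forms the factor GABP, was at 6.51, 5.78, 7.09 and 6.23 FPKM, and GABPB1 was at 16.2, 17.9, 25.8 and 17.7 FPKM. PPARGC1A, the coactivator of tissues rich in mitochondria, did not exceed 0.202 FPKM. PPRC1, a related coactivator of dividing cells, was at 25.5 FPKM in BC1 cells, 18.7 in APLNR+ mesoderm, 7.78 in HEPs and 14.8 in HPCs, a fall of 2.402-fold (95% interval 2.21 to 2.62) at the second transition. ESRRA was at 18.7, 30.9, 29.3 and 35.6 FPKM. MYC was at 52.9 FPKM in BC1 cells, 86.5 in APLNR+ mesoderm, 57.9 in HEPs and 141 in HPCs, highest in CD43+ after a rise of 2.44-fold (95% interval 2.29 to 2.596).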

How the data were processed

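The deposited table held 1 FPKM value per gene and library, made by the authors before deposit. Per the submitters' processing notes, reads were handled with BWA, Bowtie and RSEM against hg19, while the gene positions in the table matched GENCODE 29, which is on GRCh38, for 99.5% of the 58274 identifiers. The notes give no versions. Libraries were made from Trizol-extracted RNA with a TruSeq RNA kit, which selects polyadenylated RNA and keeps no strand, and how the counting treated overlapping genes is not given in the sources used here. The unit was read from the study's own plot axis and the values. FPKM are relative to each library's total, so a few very abundant genes can shift the rest.

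Identifiers on more than 1 row (90) were summed. Genes under 1 FPKM in all 4 libraries were left out of the medians and counts, which left 17137, and differences were taken on log2(FPKM + 1). Library depths, 19500000 to 23400000 fragments, were recovered from the steps between low values and gave approximate fragments and exact Clopper-Pearson 95% intervals of a ratio, which cover counting error only. The scripts were tested on simulated data. With 1 library per population no test between populations could be made. Start positions, which the table counts from 0, are printed from 1.

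The members and gene lists were chosen with earlier results of these data known. Named were all 13 mitochondrial genes, SDHA to SDHD, all genes of an isoform group, the 2 largest rises and falls of each complex at each transition and the largest rise and fall of each list. NDUFS5, NDUFA4, COX5B, ATP5A1, ATP5B, TFAM, NRF1, GABPA, ESRRA, SLC25A5 and PPARGC1A were named after their values were seen. Alternatives were 2 other scalings, another pseudocount and filter, a 2-fold limit and the mean in place of the median. Python 3.11.15, pandas 2.3.3, numpy 2.4.6, scipy 1.17.1 and matplotlib 3.10.9 were used.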

Additional observations from a re-analysis of the deposited data

How the results depend on the processing

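Direction was kept in every alternative run for the median of the nuclear subunits, 32 values. That median was -0.26, 0.17, 0.11 and, from BC1 to CD43+, 0.05 with FPKM rescaled to the nuclear protein-coding total and -0.28, 0.10, 0.29 and 0.14 with median-of-ratios size factors, against -0.24, 0.13, 0.19 and 0.10 as deposited. With the nuclear total, the mitochondrial median was 0.032 at the second transition, 0.42 at the third and 0.13 from BC1 to CD43+, the nuclear subunits that fell at the third were 2, and the mitochondrial ones that rose from BC1 to CD43+ were 1. With size factors the mitochondrial medians were -0.63, -0.040, 0.60 and, from BC1 to CD43+, 0.22, and 13 nuclear subunits rose at the third transition. As means, the mitochondrial changes were -0.50, 0.037, 0.58 and 0.12. The sign of the mitochondrial change at the second transition thus depends on the scaling, while all 13 genes were lower at the first and higher at the third under both scalings. Of the 77 nuclear subunits, 61 were higher at the third transition, 51 with the nuclear total and 68 with size factors. The median of all genes at that transition moved too, from -0.08 to -0.15 with the nuclear total and -0.004 with size factors. As deposited 42.6% of all genes were higher there, and this share was not taken under the other scalings. At a 2-fold limit, nuclear counts of rises and falls were 0 and 1 at the first transition, 3 and 0 at the second, and 0 and 1 from BC1 to CD43+, with 1 rise at the third. Mitochondrial counts at 2-fold were 0 falls at the first transition, 0 rises at the second, 2 rises at the third and 0 rises from BC1 to CD43+. The shares of all genes for the same calls were 9.32%, 13%, 7.63% and 15.2%. The ratio of the genomes was 24.8, 21.0, 19.5 and 25.2 by geometric means and 2.44, 2.25, 2.17 and 2.76 without MT-ATP8, MT-ND4L and MT-ND6. Apart from the scalings, the limit and these measures by their own construction, the cause of the moves was not tested. Other pseudocounts and filters moved none of these counts past the limit of 1.5 times. No paired analysis was possible because each population has 1 library, and no library could be left out of a group. Depth limits COX6A2, COX6B2, COX7A1 and COX7B2, and fragments could not be estimated for MT-ATP8 and MT-ND4L.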

Other observations

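The smaller lists of assembly factors had these values, with FPKM in the order BC1, APLNR+, CD31+CD34+ and CD43+. The 7 factors of complex III had medians of 0.09, -0.61 and -0.06, with 4 falls at the second transition, where 21.3% of all genes fell. BCS1L, which inserts the Rieske protein, was at 23.4, 45.1, 29.3 and 38.6 FPKM. LYRM7, which holds the Rieske protein before insertion, was at 4.28, 4.63, 12.6 and 7.64 FPKM. The 4 factors of complex II had medians of -0.17, 0.21 and 0.29. SDHAF3, which protects the iron-sulfur subunit, was at 27.7, 17.2, 26.8 and 53.2 FPKM. Among the 4 factors of the ATP synthase, with medians of -0.06, -0.10 and 0.22, ATPAF1 was at 23.5, 16.4, 28.1 and 25.7 FPKM and ATPAF2 at 19.2, 33.9, 21.7 and 25.04 FPKM.

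The mitochondrial ribosome had its lowest medians at the second transition. Its 49 large-subunit genes had medians of -0.08, -0.21 and 0.11, with 40 of 49 lower at the second transition, against 47.9% of all genes, and its 32 small-subunit genes -0.15, -0.16 and 0.18. MRPL3 was at 99.8, 79.7, 31.2 and 40.1 FPKM and MRPS12 at 26.4, 23.4, 10.7 and 14.2 FPKM, the largest falls of each list at the second transition. MRPS27 was at 133, 116, 109.99 and 214 FPKM, the largest rise of the small subunit at the third. The 11 genes that shape cristae had medians of -0.25, -0.50 and 0.13. CHCHD6 was at 42.7, 32.4, 19.2 and 10.5 FPKM and MINOS1, a core component of the cristae junction, at 78.9, 59.1, 34.5 and 30.9 FPKM, both lowest in CD43+.

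Other genes of the lists examined beside the subunits moved as follows, with changes in log2(FPKM + 1). Among the assembly factors of complex I, NDUFAF1 was higher by 0.46 in CD31+CD34+ than in APLNR+, and from CD31+CD34+ to CD43+ NDUFAF6 rose by 0.91 while NUBPL, which supplies iron-sulfur clusters, changed by -0.46. For complex II, SDHAF1 rose by 0.63 into APLNR+, SDHAF4 rose by 0.85 into CD31+CD34+ and SDHAF2 changed by -0.34 there. For complex III, TTC19 changed by -0.51 at the first transition and UQCC3 fell by 0.85 at the second. For complex IV, COX20, a chaperone of the second catalytic subunit, fell by 1.04 at the first transition, COX18 rose by 0.75 at the second and CMC2 fell by 0.67 into CD43+. FMC1, a factor of the ATP synthase, changed by 0.35 at the third.

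In the coenzyme Q pathway PDSS2 fell by 0.96 into APLNR+, COQ6 changed by 0.52 there and COQ8A rose by 0.93 into CD31+CD34+. Of the genes that read mitochondrial DNA, TEFM, an elongation factor, rose by 0.77 at the second transition, and SUPV3L1, a helicase of RNA turnover, changed by 0.27 at the first. In the mitochondrial ribosome, MRPL1 fell by 1.13 and MRPS9 by 1.05 into APLNR+, where MRPL53 rose by 1.04 and MRPS11 changed by 0.32. At the second transition MRPL30 rose by 0.75 and MRPS5 changed by 0.44, and at the last MRPL24 rose by 0.82, MRPL52 fell by 0.74 and MRPS6 changed by -0.53. In the tricarboxylic acid cycle SUCLG1 rose by 0.77 into APLNR+, SUCLG2 fell by 0.65 into CD43+ and IDH3A changed by -0.52 and then 0.49. The phosphate carrier SLC25A3 changed by 0.39 at the second transition. Among cristae genes, C19orf70 rose by 0.86 into APLNR+, and at the second transition APOOL rose by 0.74 and ATAD3A fell by 0.97. CHCHD3 changed by 0.47 at the third. With 1 library each, these values have no replicate check.

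Of the symbols that the choice of genes took in but that encode no separate subunit, 4 reached 1 FPKM. The retrogene copy UQCRHL was at 2.75, 1.55, 1.40 and 2.32 FPKM in the order of differentiation, the pseudogene UQCRFS1P1 at 1.27, 0.920, 0.939 and 1.12, and ATP5S, a protein associated with the ATP synthase, at 7.94, 5.26, 7.48 and 9.58. A second identifier under the symbol SDHD, a readthrough gene, was at 10.2, 22.5, 12.2 and 8.30 FPKM and was highest in APLNR+, where SDHD itself was lowest.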
